A study of Mus musculus with 40 samples.

Results

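The comparison described here sets the cortex 4 h after the fifth closed head injury (CHI) against the state just before that injury. It uses 6 of the 40 samples of the series: 3 from mice that took 5 injuries and were collected 4 h after the last (5xCHI 4 h, samples 9, 10 and 32), and 3 from mice that took 4 injuries and were collected 24 h after the last (4xCHI 24 h, samples 24, 25 and 40). Members were chosen by these labels, not by a measured value. Each sample is a different mouse, so the state before the injury was read in other animals and not in the same ones.

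Total RNA of the left-hemisphere somatomotor cortex was sequenced in bulk. All groups were females of the 3xTg-AD genotype on a C57BL/6J background, young adults that carry mutant human transgenes, MAPT among them, so the controls carry these transgenes too and no wild-type mice were compared. The injury was a weight drop onto the intact head of an anesthetized mouse, and injuries followed each other at daily intervals. The 4xCHI mice were collected 96 h and the 5xCHI 4 h mice 100 h after the start of the protocol, so a difference between them holds the effect of the injury, of the anesthesia that came with it and of the hour of collection, which cannot be told apart. The other groups used beside these were sham-injured mice (n = 4), 1xCHI at 4 h (n = 3), 2xCHI at 24 h (n = 3), 3xCHI at 4 h (n = 2), 5xCHI at 30 min (n = 3) and 5xCHI at 24 h (n = 4).

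Within hours of a blow to the head, neurons that were active switch on immediate early genes such as Fos and Arc, and these transcripts decay again soon after. Astrocytes, which feed neurons and clear glutamate, respond over hours to days with structural and inflammatory genes such as Gfap, Vim and Osmr, and microglia, the resident immune cells, raise complement and phagocytic genes. Any stressful handling also releases glucocorticoid hormone, which switches on genes such as Fkbp5 in many cell types.

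No gene passed the test. Of 15224 features tested with edgeR's quasi-likelihood test, 0 had an adjusted p under 0.05 (0%, smallest adjusted p 0.894), and DESeq2 also called 0. At an unadjusted p under 0.05 the edgeR count was 812 features (5.33% of those tested), of which 537 were higher (3.53%) and 275 lower (1.81%) at 4 h, and DESeq2 gave 864. That share lies near the 5% that such a threshold lets through without any difference. The edgeR count was 384 without sample 10 and 1061 without sample 32. Levels are given as CPM, a gene's share of the TMM-normalized library size of its sample, and a difference is the fitted log2 of the 5xCHI 4 h level over the 4xCHI 24 h level with its standard error (SE). The labels do not say how animals were shared out to litters or days, so the p-values measure only the spread between these samples.

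The 6 samples did not stand equally close to each other, and this bears on every list below. Their summed counts were alike, from 16134632 to 21760508 at 5xCHI 4 h and from 18066298 to 20171417 at 4xCHI 24 h, but sample 10 had 145 features more than 2-fold above all 5 other samples (computed on CPM plus 0.5) and 22 more than 2-fold below them. The leading features of sample 10 were Hmox1, which breaks down heme, at 120.2 CPM against at most 6.16 in the others, Klk6, a secreted protease, at 22.4 against at most 1.96, and the phagocyte genes Gpnmb, at 20.3 against at most 2.13, and Spp1, at 84.8 against at most 11.2. No other sample had more than 22 features above the rest, and sample 9 had 0. The level of a gene in bulk tissue cannot separate more cells of a type from more RNA per cell.

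Samples 24 and 32 carried transcripts of neighbouring tissue. Ttr, the transport protein made by the choroid plexus, was at 1211 CPM in sample 32 (5xCHI 4 h) and 785 CPM in sample 24 (4xCHI 24 h) but between 6.26 and 21.0 CPM in the other 4, so the contrast holds such a sample on each side. Sample 32 also had the highest levels of genes of striatal projection neurons: Drd2, a dopamine receptor, was at 19.6 CPM there and between 0.526 and 2.47 CPM in the others, and Adora2a, an adenosine receptor of the same cells, was at 24.8 CPM against at most 4.31. The summed CPM of 12 striatal genes was 838 in sample 32 and between 199 and 311 in the other 5, and none of the 12 was at 0 in any sample. Meningeal fibroblast genes (16 listed, all tested, none at 0) summed to 592, 633 and 826 CPM at 5xCHI 4 h and to 1055, 402 and 985 CPM at 4xCHI 24 h. The 6 samples matched their labelled sex, and neuronal, astrocyte, microglial and oligodendrocyte markers were present in all. Sample 10 had the lowest summed neuron markers, 14680 CPM against 16810 to 19310 in the others, and the highest microglial sum, 961 against 442 to 521.

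The 24 leading genes, 12 higher and 12 lower, had the smallest p among those whose 3 samples at 4 h all lay on one side of the 3 before the injury. Non-overlapping higher values were seen for 1100 of 15224 features (7.23%) and non-overlapping lower values for 908 (5.96%), and the genes named here were picked from these by rank, so their separation is a description. Osmr, the oncostatin M receptor subunit of reactive astrocytes, was at 6.98, 18.9 and 4.19 CPM at 5xCHI 4 h (samples 9, 10 and 32) and at 3.30, 1.89 and 3.07 CPM at 4xCHI 24 h (samples 24, 25 and 40, the order kept below). Every sample at 4 h lay above those before the injury, although sample 32 did so by a small margin. The log2 difference was 1.87 (SE 0.51, adjusted p = 0.894, n = 3 and 3, edgeR), and 1.01 when sample 10 was left out. Osmr is encoded on chromosome 15 (GRCm38, 6813577 to 6874969, minus strand).

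Fyb, an adaptor protein of immune cells, showed the smallest p of the genes tested here among those that did not overlap, at 4.53, 10.9 and 3.19 CPM against 2.47, 1.53 and 1.98 CPM. Its log2 difference of 1.65 (SE 0.38, adjusted p = 0.894 by edgeR) became 0.95 without sample 10. Daam2, a formin found in astrocytes and oligodendrocytes, was at 137, 179 and 132 CPM against 96.7, 104 and 96.5 CPM. The groups lay well apart, with a log2 difference of 0.59 (SE 0.15), and 0.44 without sample 10. Daam2 also went with sample number in other groups, as given below. Pxdn, a peroxidase that crosslinks basement membrane collagen, was at 54.3, 118 and 61.8 CPM against 32.9, 42.0 and 38.7 CPM. Sbno2, a transcriptional regulator downstream of interleukin signals, was at 26.4, 41.7 and 22.8 CPM against 17.6, 16.2 and 17.8 CPM. Sample 10 was the highest in all 5 of these genes, and samples 9 and 32 lay closer to the level before the injury.

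Among the leading higher genes only Fancd2 and Gm16008 were not highest in sample 10. Fancd2, of the Fanconi anemia DNA repair pathway, was highest in sample 9, at 5.83, 4.13 and 4.87 CPM against 2.31, 3.10 and 3.37 CPM, with a log2 difference of 0.75 (SE 0.21) that was 0.86 without sample 10. Lpp, a focal adhesion protein, was at 9.43, 11.7 and 10.6 CPM against 6.93, 7.74 and 7.08 CPM. The antisense transcript Gm16008 was at 1.36, 1.84 and 1.87 CPM against 0.715, 0.316 and 0.792 CPM. It shares its place with a gene on the other strand, and counting by strand is not stated in the sources used here, so its reads cannot be told from that partner's. The remaining 4 were Raver1 and Hip1, with log2 differences of 0.38 and 0.45, the long noncoding 9330151L19Rik, with 0.37, and Creb3l1, a membrane-bound transcription factor, with 1.07.

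The 12 leading lower genes had smaller differences, between -0.94 and -0.21 on the log2 scale. Kcns1, a modulatory potassium channel subunit of neurons, was at 22.4, 19.7 and 21.4 CPM against 35.1, 32.0 and 32.2 CPM. The 3 values at 4 h were close to each other and far from those before the injury, with a log2 difference of -0.65 (SE 0.21, adjusted p = 0.894 by edgeR). It was -0.60 without sample 10 and -0.69 without sample 25. Kcns1 also varied without injury, since the sham-injured mice had 22.3, 35.1, 37.3 and 36.8 CPM. Mdh1, the cytosolic malate dehydrogenase, was at 564, 466 and 553 CPM against 634, 672 and 654 CPM, a log2 difference of -0.31 (SE 0.08).

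Id2, an inhibitor of basic helix-loop-helix factors, was at 97.9, 104 and 93.1 CPM against 120.1, 124 and 129 CPM. Adcy8, a calcium-stimulated adenylyl cyclase of neurons, was at 21.9, 20.4 and 14.4 CPM against 29.2, 35.7 and 24.6 CPM. Acsl5, a fatty acid activating enzyme, and Pdss2, which builds the side chain of coenzyme Q, had log2 differences of -0.29 and -0.35. Mob3b, Armcx1, Otud1 and Map7d2 lay between -0.68 and -0.21, and Gm14434 and the noncoding Gm48226 at -0.94 and -0.47. Gm14434 is a zinc finger gene of a family with near-identical copies, so its reads may be split between them. The plot of the 24 leading genes shows these values by mouse.

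**Figure D1:**
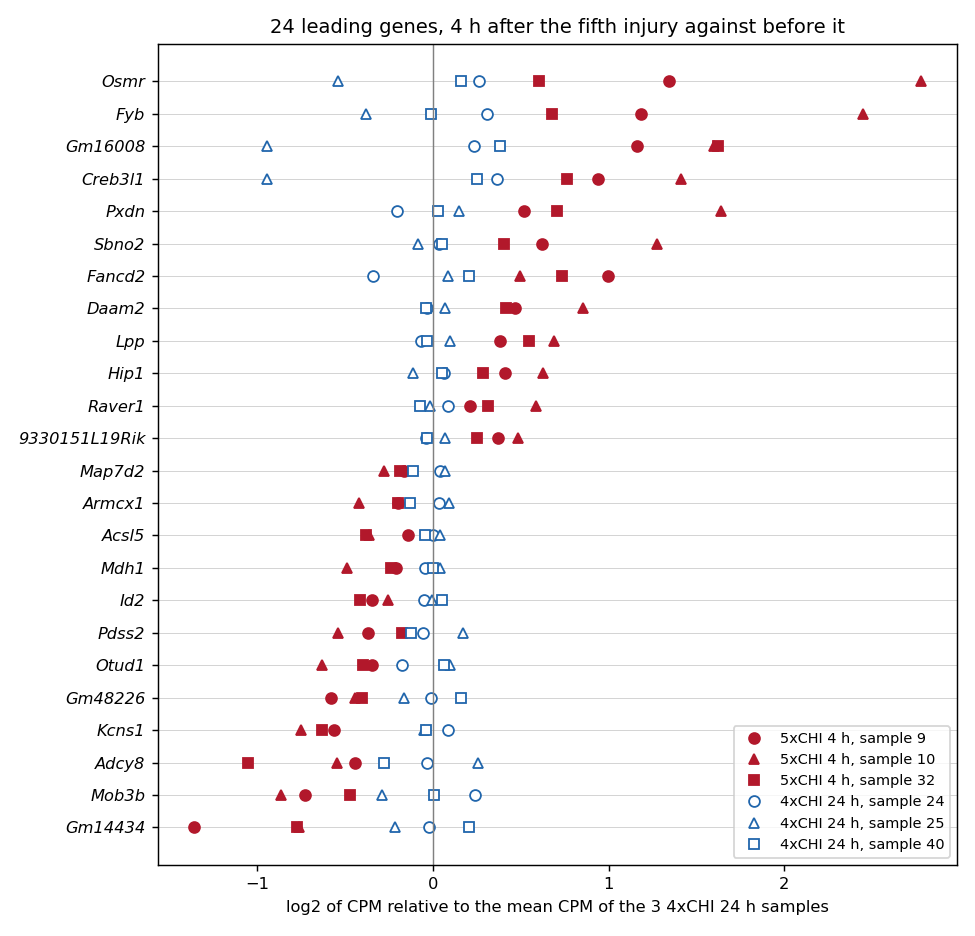
Log2 of the CPM of each sample relative to the mean CPM of the 4xCHI 24 h samples (x axis) for the 24 leading genes (y axis), with filled red symbols for 5xCHI 4 h and open blue symbols for 4xCHI 24 h. Genes were picked for separation of the groups, sample 10 (filled triangle) lies farthest from 0 in most of the higher genes, and for Osmr it reached 18.9 CPM while sample 32 (filled square) was at 4.19 CPM.

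Among 25 listed glucocorticoid-responsive genes, all of them tested, 3 had an unadjusted p under 0.05 with higher values at 4 h (Plin4, Hif3a and Fkbp5), beside 3.53% of all features, and 1 with lower values (Dusp1, which is also an immediate early gene), beside 1.81%. The list as a whole did not lean to a side: 15 members were higher and 10 lower, with a median log2 difference of 0.05 beside 0.01 over all features tested. That median was -0.09 without sample 24 and 0.25 without sample 25. Plin4, a coat protein of lipid droplets, was at 17.8, 50.5 and 18.8 CPM at 5xCHI 4 h and at 5.66, 5.42 and 4.80 CPM at 4xCHI 24 h. All 3 samples at 4 h stood more than 3-fold above the highest sample before the injury. The log2 difference was 2.46 (SE 0.78, adjusted p = 0.894 by edgeR), and 1.78 without sample 10. Plin4 is encoded on chromosome 17 (GRCm38, 56100591 to 56109803, minus strand).

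Hif3a, a member of the hypoxia-inducible factor family that glucocorticoids also induce, was at 11.7, 23.8 and 9.37 CPM against 5.22, 6.89 and 6.53 CPM. Fkbp5, a co-chaperone that damps the glucocorticoid receptor, was at 31.2, 54.8 and 33.1 CPM against 24.3, 23.5 and 18.9 CPM. The groups did not overlap in either gene. With Plin4, and Sult1a1 below, 4 of the 25 listed genes lay higher without overlap, beside 7.23% of all features. The log2 differences of Hif3a and Fkbp5 were 1.27 (SE 0.45) and 0.84 (SE 0.36), or 0.75 and 0.53 without sample 10. Sult1a1, a sulfotransferase, was at 7.58, 13.7 and 14.6 CPM against 7.09, 6.00 and 7.33 CPM. Other well-known targets of the same receptor showed no such separation. Sgk1, a kinase of ion transport, was at 65.5, 92.0 and 108 CPM against 47.9, 109 and 95.8 CPM, and Tsc22d3, an anti-inflammatory mediator, at 64.4, 62.7 and 78.6 CPM against 55.5, 95.2 and 67.6 CPM. The receptor itself, Nr3c1, had a log2 difference of -0.33 (SE 0.22).

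The first and the third injury give contrasts at 4 h in mice that were not used above. They are not alike in what they hold: the first is set against sham-injured mice, which were anesthetized without a blow, and the third, as the fifth, against mice injured 24 h before. The study matched its sham-injured mice to every injury group and time and then pooled them. The anesthesia of the sham-injured mice used here is not given. After the first injury Plin4 was at 16.0, 29.5 and 14.5 CPM against 8.40, 13.5, 7.04 and 6.25 CPM in sham-injured mice, a log2 difference of 1.17 (SE 0.68). After the third it was at 42.2 and 37.5 CPM against 4.45, 8.49 and 10.3 CPM at 2xCHI 24 h, a log2 difference of 2.36 (SE 0.81). The samples at 4 h lay above those they were set against in all 3 comparisons. The third sets samples 1 and 3 against samples 19, 21 and 29. There the injury and the range of sample numbers, described next, cannot be told apart. The first is split in part: samples 15, 16 and 36 stand against sham samples 6, 20, 35 and 39. Fkbp5 behaved as Plin4 did, with log2 differences of 0.91 after the first and 1.01 after the third injury. It overlapped in neither, beside 3.07% and 10.6% of all features that lay higher without overlap. Hif3a overlapped after the first injury (log2 difference 0.37) and did not after the third (1.12). None of these had an adjusted p under 0.05 by edgeR.

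Plin4 was not low in every other mouse. At 5xCHI 30 min it was at 28.9, 25.7 and 4.90 CPM, and at 5xCHI 24 h at 80.8, 50.6, 4.26 and 6.71 CPM, so within both groups some mice were above and some below the 5xCHI 4 h samples 9 and 32. In both groups the samples numbered 18 or lower had the high values and those numbered 19 or higher the low ones. All 4xCHI 24 h samples are numbered 19 or higher, while samples 9 and 10 are numbered lower and sample 32 higher. Within the samples numbered 19 to 40, Plin4 was at 18.8 CPM in sample 32 against 5.66, 5.42 and 4.80 CPM. What the numbers stand for is not given in the sources used here. The log2 difference of Plin4 was 1.82 with these samples only, 2.26 with the split after number 18 as a covariate and 2.13 with sample number as a covariate, beside 2.46.

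**Figure D2:**
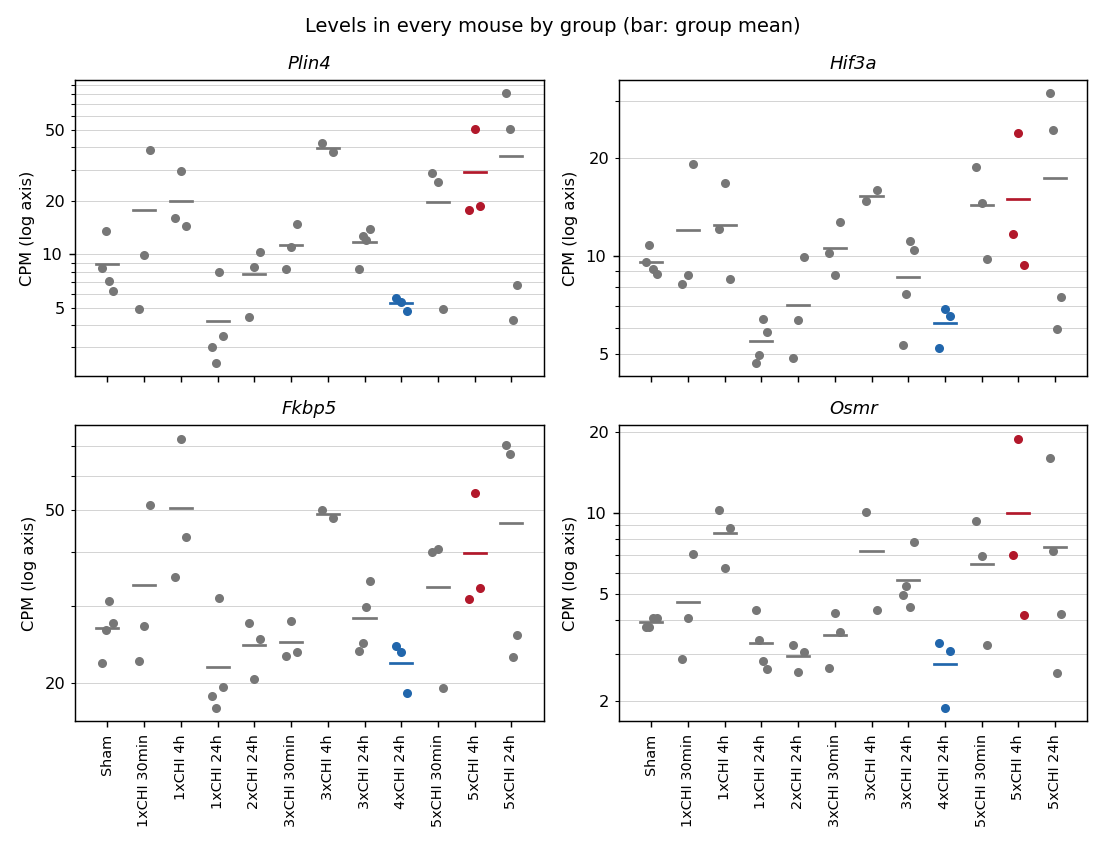
CPM on a log axis for Plin4, Hif3a, Fkbp5 and Osmr in each of the 39 mice (points), by group along the x axis, with a bar for the group mean, 5xCHI 4 h in red and 4xCHI 24 h in blue. Each red point lies above each blue point in all 4 panels, and Plin4 at 5xCHI 24 h is split between 50.6 and 80.8 CPM in 2 mice and 4.26 and 6.71 CPM in the other 2.

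Most of the spread of immediate early genes lay among the mice before the injury, and 1 of these, sample 24, was at the level of the mice at 4 h, with a list median of -0.58 beside -0.90, -0.60 and -0.56. Of 25 listed genes, 23 were tested, and 22 of these had lower and 1 (Maff) higher fitted levels at 4 h. An unadjusted p under 0.05 was reached by 9, all lower, beside 1.81% of all features, and 0 were called. The median log2 difference was -0.91. Fos, a subunit of the AP-1 transcription factor, was at 9.60, 15.7 and 13.6 CPM at 5xCHI 4 h and at 11.8, 98.1 and 38.2 CPM at 4xCHI 24 h. The mice at 4 h were alike and low, and those before the injury ranged from that same level in sample 24 to several-fold above it in sample 25. The log2 difference was -1.93 (SE 0.82, adjusted p = 0.929 by edgeR), and -0.97 when sample 25 was left out.

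Arc, which regulates synaptic receptor traffic, was at 80.9, 74.9 and 104 CPM against 68.3, 471 and 301 CPM, and its log2 difference of -1.70 (SE 0.58) was -1.11 without sample 25. Nr4a1, a nuclear receptor induced by activity, was at 52.4, 44.4 and 65.5 CPM against 54.3, 240 and 106 CPM. Egr2, a zinc finger factor, was at 0.818, 1.70 and 6.00 CPM against 1.59, 29.1 and 9.55 CPM. Dusp1, a phosphatase that switches off MAP kinases, was at 25.7, 25.0 and 23.6 CPM against 23.0, 109 and 53.3 CPM. In each of these 4 genes sample 25 was the highest of the 6, sample 40 the next, and sample 24 within or near the range at 4 h.

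Dusp6 and Nr4a2 were the only 2 of the 23 whose groups did not overlap, beside 5.96% of all features lower. Dusp6, another MAP kinase phosphatase, was at 43.1, 24.4 and 52.0 CPM against 52.4, 98.7 and 73.6 CPM. Nr4a2 was at 7.36, 11.1 and 10.2 CPM against 21.3, 34.1 and 11.9 CPM. Without sample 25, 20 of the 23 members were lower, the median was -0.41 and 0 reached an unadjusted p under 0.05. Activity-induced effector genes (20, all tested) gave 15 lower and 5 higher with a median of -0.21, and Npas4, an activity-dependent factor, was at 14.6, 9.33 and 14.3 CPM against 13.1, 51.8 and 27.6 CPM.

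The promoters of Fos and Nr4a1 are shown because these genes follow the calcium and cyclic AMP pathway through the cAMP response element, whose short form is TGACG. The windows run from 250 bases before to 50 bases after the RefSeq start (GRCm38.p6), are written 5′ to 3′ on the gene's strand, and carry the short form on either strand in capitals (CGTCA is its reverse complement).
Fos, chr12:85473640-85473939, plus strand: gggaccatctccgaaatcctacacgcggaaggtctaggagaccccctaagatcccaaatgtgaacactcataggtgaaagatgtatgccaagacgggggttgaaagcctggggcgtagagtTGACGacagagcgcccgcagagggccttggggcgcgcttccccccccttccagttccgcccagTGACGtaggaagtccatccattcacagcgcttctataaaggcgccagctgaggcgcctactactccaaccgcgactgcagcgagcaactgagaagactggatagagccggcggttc
Nr4a1, chr15:101266596-101266895, plus strand: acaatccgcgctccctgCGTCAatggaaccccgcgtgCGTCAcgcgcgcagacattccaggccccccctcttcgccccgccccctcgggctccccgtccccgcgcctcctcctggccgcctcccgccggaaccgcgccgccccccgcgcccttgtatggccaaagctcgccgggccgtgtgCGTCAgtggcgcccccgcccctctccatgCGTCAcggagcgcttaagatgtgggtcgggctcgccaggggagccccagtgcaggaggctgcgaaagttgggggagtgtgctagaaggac
Fos held 2 and Nr4a1 held 4 short forms. On either strand, the short form was found in 15 of the 20 immediate early genes with a window, beside 23% of all 27025 genes, 8 of 13 heat shock genes (61.5%) and 7 of 19 clock genes (36.8%), and the full element TGACGTCA, which contains it, in 3 of 20 (Btg2, Dusp1 and Maff) beside 2.03%. The E-box CACGTG was in 4 of 20 beside 8.09%, the D-box TTATGTAA in 0 beside 1.11%, and the serum response element core in 2 beside 1.81%. A match is a run of letters and not a bound site.

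Of 18 genes for heat shock proteins and chaperones, all tested, 0 were called, and the smallest adjusted p was 0.925 by edgeR. The fitted level at 4 h was lower for 14 and higher for 4, with a median log2 difference of -0.15. In 6 of the 18 all samples at 4 h lay below all before the injury, beside 5.96% of all features, and 4 had an unadjusted p under 0.05 with lower values, beside 1.81%. Dnajb1, the co-chaperone that hands clients to Hsp70, was at 47.2, 45.6 and 45.9 CPM against 51.6, 62.6 and 58.0 CPM. The log2 difference was -0.31 (SE 0.11, adjusted p = 0.925 by edgeR), the same without sample 10 and -0.26 without sample 25. Hspa8, the constitutive Hsp70, was at 1612, 1512 and 1574 CPM against 1777, 1934 and 1745 CPM.

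The inducible Hsp90, Hsp90aa1, was at 1115, 1128 and 1144 CPM against 1233, 1353 and 1328 CPM, and Hspd1, the mitochondrial chaperonin, at 146, 146 and 149 CPM against 169, 184 and 162 CPM. Hsp90ab1 and Hsph1 did not overlap either, with log2 differences of -0.12 and -0.20. In the opposite direction, Bag3, which directs clients to autophagy, was at 10.4, 15.5 and 9.37 CPM against 8.08, 8.58 and 8.71 CPM. The list median was -0.22, -0.16 and -0.14 in samples 9, 10 and 32 relative to the mean before the injury, and -0.02, 0.04 and -0.03 in samples 24, 25 and 40. The separation was not seen against the later time: relative to 5xCHI 24 h, 11 of the 18 were higher and 7 lower, with a median of 0.02. After the first injury the 18 genes had a median of -0.04, with 8 higher and 10 lower. Dnajb1 was then at 48.5, 41.1 and 45.2 CPM against 46.1, 60.2, 59.8 and 51.9 CPM in sham-injured mice, and the ranges met. Hsp90aa1 was at 1371, 1283 and 1243 CPM against 1163 to 1320.2 CPM, and Hspd1 at 151, 128 and 167 CPM against 149.6 to 171 CPM. After the third injury the 18 genes had a median of -0.13, with 5 higher and 13 lower, and Hsp90aa1, Hspa8, Hsp90ab1 and Hsph1 lay below without overlap, beside 10.4% of all features, with log2 differences of -0.18, -0.18, -0.08 and -0.24. Hsp90ab1 lay below without overlap after the first injury too, at -0.05.

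The promoter of Hspd1 is shown because it holds the core of the heat shock element, GAANNTTC, by which the heat shock factor recognises chaperone genes (capitals, reading the gene's strand 5′ to 3′).
Hspd1, chr1:55087883-55088182, minus strand: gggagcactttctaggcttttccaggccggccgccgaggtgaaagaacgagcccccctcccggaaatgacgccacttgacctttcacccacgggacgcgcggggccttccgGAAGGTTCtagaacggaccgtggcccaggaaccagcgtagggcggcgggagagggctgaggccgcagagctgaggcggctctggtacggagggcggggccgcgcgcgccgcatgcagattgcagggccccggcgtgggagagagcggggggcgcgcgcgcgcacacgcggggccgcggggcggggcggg
This core, which is its own reverse complement, was present in 8 of the 13 listed chaperone genes with a window, beside 9.04% of all genes. Dnajb1 was not among the 8.

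The 3 neurofilament genes were not called, but in each the values of the mice at 4 h lay below those of the mice before the injury. The share of all features that did so was 5.96%. Nefm, the medium chain of the axonal neurofilament, was at 315, 223 and 351 CPM against 453, 396 and 370.2 CPM. Nefl, the light chain, was at 498, 406 and 473 CPM against 607, 579.7 and 541 CPM, and Nefh, the heavy chain, at 88.4, 82.1 and 85.0 CPM against 122, 127 and 91.6 CPM. The log2 differences were -0.46 (SE 0.16), -0.33 (SE 0.12) and -0.42 (SE 0.14), with adjusted p-values of 0.925, 0.929 and 0.894 by edgeR, and without sample 10 they were -0.30, -0.25 and -0.40. Nefl lies within the span of Nefm on the opposite strand of chromosome 14 (GRCm38, Nefm 68082590 to 68124846 and Nefl 68083863 to 68089095), so without strand their reads cannot be told apart where they overlap.

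Most other neuron markers differed less. Of 20, all tested and all above 0 in the 6 samples, 17 were lower and 3 higher, with a median of -0.11, and the count became 11 lower and 9 higher with a median of -0.03 when sample 10 was left out. Of the 20, neurofilaments included, 4 lay below without overlap, beside 5.96% of all features. An unadjusted p under 0.05 by edgeR with lower values was reached by 4, beside 1.81%. Sample 10 had the lowest list median, -0.34, beside -0.03 and -0.08 in samples 9 and 32. Against 5xCHI 30 min Nefm had a log2 difference of -0.51 (SE 0.16), and against 5xCHI 24 h of -0.42 (SE 0.15), so the fitted level at 4 h was the lowest of the 3 times after the fifth injury. That group is the same in each of these comparisons. After the first injury Nefh, Nefm and Nefl had differences of -0.38, -0.33 and -0.13 from sham, and Nefh alone of the 3 lay below sham without overlap, beside 2.38% of all features. After the third the differences from 2xCHI 24 h were 0.00, -0.25 and -0.12. Nefl, at 539.9 and 502 CPM against 569, 564 and 564 CPM, then lay lower without overlap, beside 10.4% of all features, and Nefh and Nefm overlapped.

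**Figure D3:**
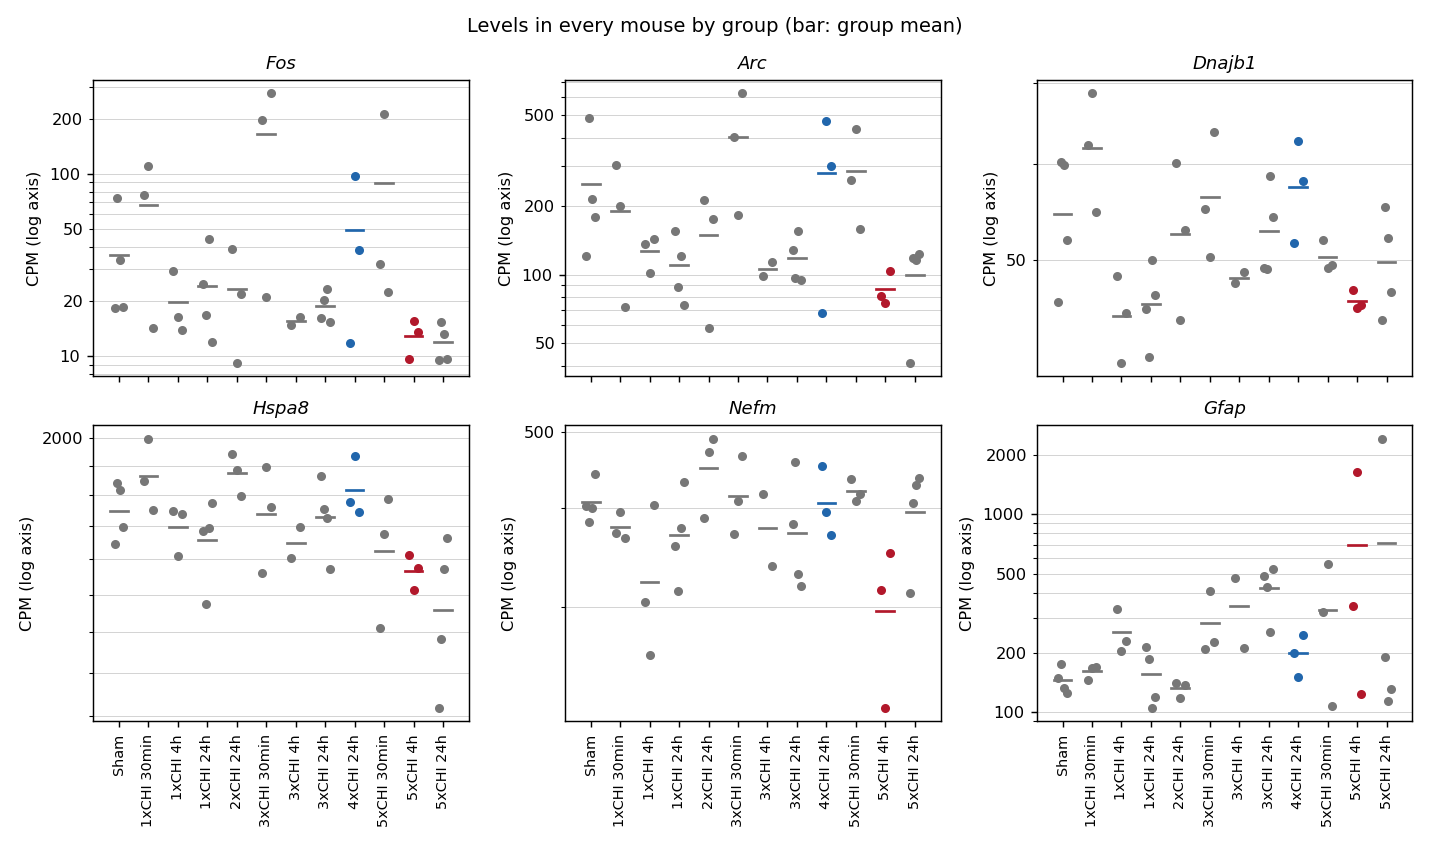
CPM on a log axis for Fos, Arc, Dnajb1, Hspa8, Nefm and Gfap in each of the 39 mice (points), by group along the x axis, with a bar for the group mean, 5xCHI 4 h in red and 4xCHI 24 h in blue. Red points are below every blue point for Dnajb1, Hspa8 and Nefm, the blue points for Fos run from 11.8 to 98.1 CPM around low red points, and Gfap runs from 123 to 1631 CPM at 5xCHI 4 h.

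Reactive astrocyte genes differed more between the 3 mice at 4 h than between the groups. Of 13 listed pan-reactive genes, 9 were tested, of which 8 were higher and 1 lower with a median log2 difference of 1.82, and 7 had an unadjusted p under 0.05, beside 3.53% of all features higher. The other 4 (Lcn2, Steap4, Timp1 and Cxcl10) did not pass the filter on low counts. Gfap, the intermediate filament of reactive astrocytes, was at 342, 1631 and 123 CPM at 5xCHI 4 h and at 199.5, 149.8 and 246 CPM at 4xCHI 24 h. Sample 10 was far above, sample 9 moderately above and sample 32 below every mouse before the injury. Vim, another intermediate filament, was at 67.2, 352 and 40.9 CPM against 44.8, 27.8 and 51.8 CPM. Cd44, a hyaluronan receptor, was at 6.32, 27.5 and 2.12 CPM against 2.36, 1.47 and 2.08 CPM, and Serpina3n, a secreted protease inhibitor, at 16.9, 119.8 and 6.75 CPM against 7.59, 4.58 and 10.5 CPM.

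The list median was 0.78, 2.60 and -0.02 in samples 9, 10 and 32. Without sample 10 the median difference was 0.37, 7 members were higher and 2 lower, and 0 reached an unadjusted p under 0.05. Osmr was the only 1 of the 9 tested members whose groups did not overlap, beside 7.23% of all features higher. The sum over the 13 genes was 475, 2225 and 204 CPM at 4 h and 292, 207 and 346 CPM before the injury. Among the A2 genes, a set first described after ischemia, 9 of 13 were tested, with 8 higher and a median of 0.45, led by Cd14, an endotoxin co-receptor, at 8.94, 24.7 and 3.81 CPM against 3.02, 3.05 and 4.21 CPM, and Emp1, a membrane protein, at 4.25, 20.2 and 2.19 CPM against 2.64, 0.263 and 3.07 CPM. The A2 median was 0.34 without sample 10 and -0.13 with samples 19 to 40 only. The 11 A1 genes, first described after endotoxin, had a median of 0.11, and of -0.06 without sample 10. Homeostatic astrocyte genes (19, all tested) were all higher by a little, with a median of 0.18 and 0 at an unadjusted p under 0.05, and without sample 10 only 6 were higher and 13 lower.

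Microglial and complement genes followed the same mouse. All 15 homeostatic microglia genes had higher fitted levels at 4 h, with a median log2 difference of 0.43 and 7 at an unadjusted p under 0.05, beside 3.53% of all features higher. The list median was 0.12, 0.90 and 0.01 in samples 9, 10 and 32, and without sample 10 the median difference was 0.10 and 0 reached that p. Of the 15, 2 lay higher without overlap, beside 7.23% of all features: Cx3cr1, the fractalkine receptor, and Aif1, a calcium-binding protein. Cx3cr1 was at 54.0, 90.0 and 56.0 CPM against 50.7, 46.1 and 47.8 CPM, and Aif1 at 5.23, 9.96 and 5.12 CPM against 3.79, 2.89 and 3.42 CPM. After the third injury Cx3cr1 lay below 2xCHI 24 h without overlap, beside 10.4% of all features lower, and Aif1 overlapped. Laptm5, a lysosomal protein, was at 37.0, 69.6 and 24.6 CPM against 24.5, 23.7 and 25.1 CPM. Fcrls was at 18.0, 65.5 and 12.0 CPM against 11.8, 14.0 and 14.9 CPM.

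Of 18 disease-associated microglia genes, 14 were tested and all 14 were higher, with a median of 0.54, which was 0.04 without sample 10. Ccl6, a chemokine, was the member with the smallest p, at 2.67, 6.14 and 1.06 CPM against 0.990, 0.947 and 0.842 CPM. Of 15 complement genes, 12 were tested, 9 were higher and 5 had an unadjusted p under 0.05, beside 3.53% of all features. Their median was 0.46, and 0.16 with 0 at that p without sample 10. C1qb, of the initiating complex, was at 38.9, 117 and 31.0 CPM against 28.9, 30.2 and 31.4 CPM, and C3ar1, the receptor of the C3a fragment, at 4.31, 14.6 and 1.31 CPM against 0.990, 1.37 and 1.63 CPM. In both genes sample 32 was within the range before the injury. Only 6 of 25 cytokines and chemokines passed the filter, and Tgfb1 had the smallest p, at 5.83, 13.3 and 4.44 CPM against 4.29, 3.74 and 4.75 CPM. Of 20 type I interferon response genes, 18 were tested, 8 higher and 10 lower with a median of -0.03, and 0 reached an unadjusted p under 0.05.

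**Figure D4:**
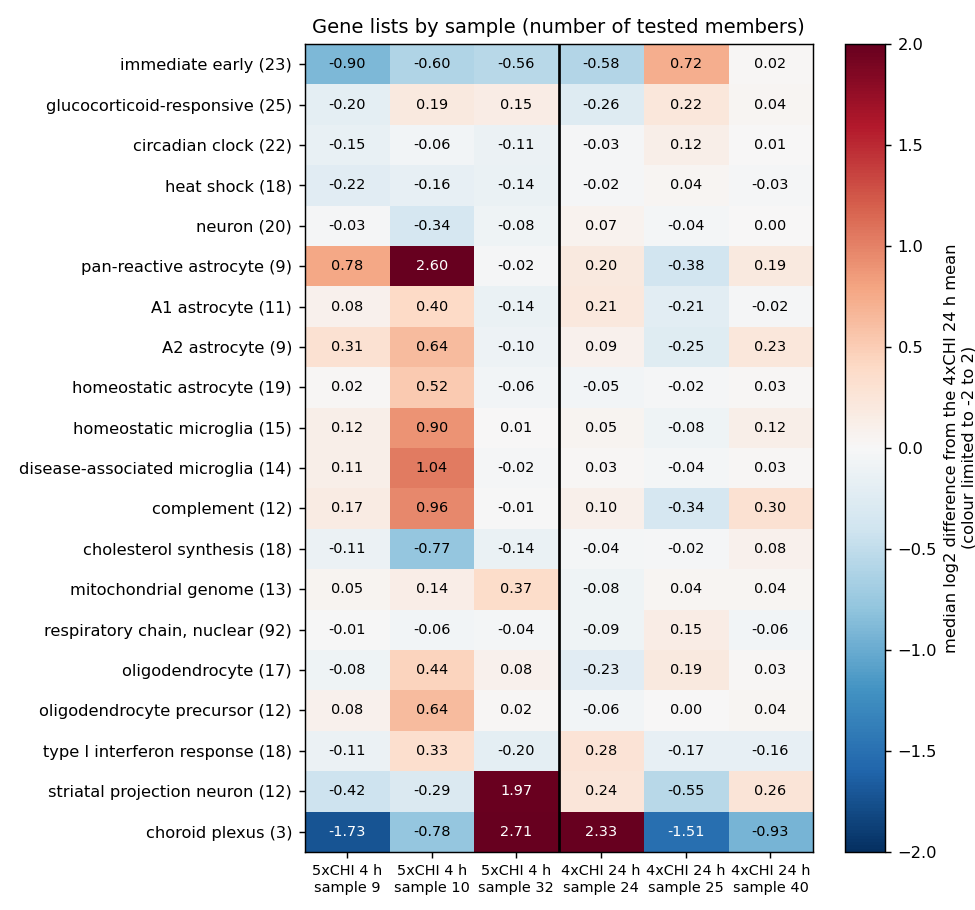
Median log2 difference of each gene list's tested members (rows, number tested in brackets) from the mean of the 4xCHI 24 h samples, in each of the 6 samples (columns), as colour and printed value. Glial lists are highest in sample 10 (pan-reactive astrocyte 2.60, beside 0.78 in sample 9), immediate early genes are high in sample 25 (0.72), heat shock genes are low in the 3 samples at 4 h, and the striatal and choroid plexus rows mark samples 32 and 24.

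All 18 cholesterol synthesis genes were lower, with a median of -0.31, and 3 had an unadjusted p under 0.05, beside 1.81% of all features lower. The range was set by sample 10: Insig1, the sterol sensor of the endoplasmic reticulum, was at 76.4, 43.1 and 74.8 CPM against 79.9, 93.5 and 93.2 CPM, and Idi1, of the isoprenoid steps, at 45.0, 22.8 and 49.5 CPM against 48.5, 54.1 and 62.5 CPM. Without sample 10, 16 were lower and 2 higher with a median of -0.12. All 13 protein-coding genes of the mitochondrial genome were higher, with a median of 0.19, and 5 of them did not overlap, beside 7.23% of all features. mt-Nd5, of complex I, was at 2692 CPM or above in each sample at 4 h and at 2568 CPM or below before the injury. When the choroid plexus bearing samples 24 and 32 were left out, 8 were higher and 5 lower with a median of 0.04.

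The nuclear respiratory chain list (107 features, 92 tested) had 29 members higher and 63 lower, with a median of -0.04, and 8 of 92 lay below all before the injury without overlap, beside 5.96% of all features. Its median was -0.11 without sample 24 and 0.03 without sample 25. Ndufs1, a complex I core subunit, was at 126, 120 and 123 CPM against 153, 146 and 144 CPM. Cytosolic ribosomal protein genes (86 features, 80 tested) had a median of 0.06. Hk2, a hexokinase, was the only gene of 13 in the hypoxia and glycolysis list with an unadjusted p under 0.05, beside 3.53% of all features higher, at 4.58, 11.5 and 4.25 CPM against 3.19, 3.79 and 3.51 CPM. Its log2 difference was 0.96, and 0.33 without sample 10. Oligodendrocyte genes (17) had a median of 0.16 and their precursors' (12) of 0.30, which became -0.02 and 0.06 without sample 10. Among 20 endothelial genes, Ly6c1, a surface antigen of brain vessels, was at 31.8, 33.9 and 25.7 CPM against 23.1, 22.6 and 17.4 CPM, and 9 were higher and 11 lower.

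Because the groups were collected at different hours, circadian clock genes were read as a check. All 22 were tested, 17 were lower and 5 higher with a median log2 difference of -0.12, and 1 (Per3) had an unadjusted p under 0.05, beside 3.53% of all features higher. Per3, a period gene, was at 62.9, 96.6 and 64.4 CPM against 46.8, 61.1 and 59.0 CPM, with a log2 difference of 0.42 that was 0.19 without sample 10. Among the output genes with the strongest daily swing, Dbp was at 95.1, 100.0 and 88.8 CPM against 77.1, 103 and 87.6 CPM and Nr1d1 at 98.4, 107 and 99.5 CPM against 99.8, 123 and 106 CPM, so the groups overlapped in both. Besides Per3, which lay above (beside 7.23% of all features higher without overlap), 3 clock genes lay below without overlap, beside 5.96%. Rora, a nuclear receptor that activates Arntl, was at 83.7, 73.1 and 81.5 CPM against 109, 86.6 and 97.7 CPM. Nr1d2, a repressor of the loop, was at 124, 131 and 136 CPM against 144, 149.9 and 149 CPM, and Cry2, another repressor, at 134, 133 and 123 CPM against 135, 135 and 137 CPM. Their log2 differences were -0.30, -0.18 and -0.06. Arntl, the activator of the loop, was at 28.2, 24.6 and 30.5 CPM against 36.8, 29.5 and 33.2 CPM, and Per1, which activity and glucocorticoids also induce, at 81.1, 78.7 and 95.7 CPM against 64.4, 143 and 104 CPM.

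The human MAPT transgene passed the filter and was at 29.8, 6.91 and 30.6 CPM at 5xCHI 4 h and at 26.8, 13.9 and 18.2 CPM at 4xCHI 24 h. The groups overlapped, the log2 difference was 0.18 (SE 0.53), and sample 10 was the lowest of the 6.

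Against the other times after the fifth injury, with the number of injuries held at 5, no gene was called either (0% in each comparison by edgeR and 0 by DESeq2). At an unadjusted p under 0.05, 508 features (3.34%) differed from 5xCHI 30 min and 442 (2.90%) from 5xCHI 24 h, and DESeq2 gave 529 and 467. All 23 immediate early genes were lower at 4 h than at 30 min, with a median log2 difference of -1.11 and 14 at an unadjusted p under 0.05, beside 1.29% of all features lower at that p, whereas against 24 h 13 were lower and 10 higher with a median of -0.05. Fos was at 32.0, 215 and 22.5 CPM at 30 min, at 9.60, 15.7 and 13.6 CPM at 4 h and at 9.50, 15.4, 13.3 and 9.61 CPM at 24 h. Npas4 had a log2 difference of -3.22 (SE 0.88, adjusted p = 1 by edgeR) and Ptgs2, the inducible cyclooxygenase, of -1.70 (SE 0.52) between 4 h and 30 min. A single mouse at 30 min was the highest in each of these 3 genes, with 322 CPM of Npas4 beside 12.8 and 22.1 CPM and 87.1 CPM of Ptgs2 beside 12.2 and 15.1 CPM.

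All 17 oligodendrocyte genes were higher at 4 h than at 30 min, 13 with an unadjusted p under 0.05, beside 2.04% of all features higher at that p. Against 24 h 15 of 17 were higher, 1 at that p, beside 1.52%. The 30 min group held a sample with 2421 CPM of Ttr. Gfap at 24 h was at 2417, 191, 114 and 130.2 CPM, so a single mouse stood apart there as sample 10 did at 4 h. Kcns1, low in all 3 mice at 4 h, was at 35.6, 25.3 and 33.6 CPM at 30 min and at 18.7, 29.6, 39.1 and 41.1 CPM at 24 h. The lower values at 24 h were those of samples 11 and 12, whereas at 30 min sample 7 was the highest. Daam2 was at 135, 113 and 98.4 CPM at 30 min and 133, 122, 105 and 103 CPM at 24 h, so that 1 mouse at each of these times reached the lower end of its 132 to 179 CPM at 4 h.

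Whether the response at 4 h changed with the number of injuries was tested as a difference of differences. No gene was called for the difference from the first injury (0% by edgeR, 0 by DESeq2), and 647 features (4.25%) had an unadjusted p under 0.05, or 679 by DESeq2. For the difference from the third injury 0 were called (0%, 0 by DESeq2), and 139 features (0.913%) had an unadjusted p under 0.05, or 141 by DESeq2. The comparisons that these differences use gave 1603 features (10.5%) at an unadjusted p under 0.05 for the first injury against sham and 304 (2.00%) for the third against 2xCHI 24 h, with 0 called in each (0%) by edgeR. DESeq2 was not run on the latter pair.

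The smallest p for the difference from the first injury was that of Ipo13, a nuclear transport receptor, with a log2 difference of 0.18 after the fifth and -0.23 after the first injury (difference 0.41, SE 0.10, adjusted p = 1 by edgeR). Wdfy4, of antigen-presenting cells, was at 0.75 after the fifth and -0.67 after the first, and Neurod1, a neuronal differentiation factor, at -0.53 and 0.45. Id2, one of the leading lower genes, was at -0.34 after the fifth and 0.17 after the first, and Raver1, one of the leading higher genes, at 0.38 and -0.11. For the third injury the smallest p belonged to Gm47218, an uncharacterised transcript, at 1.04 after the fifth and -0.69 after the third, and to Ptger1, a prostaglandin receptor, at 0.96 and -0.46. Mitochondrial genome transcripts had a median difference of 0.44 after the first injury, with all 13 at an unadjusted p under 0.05 beside 10.5% of all features, of 0.05 after the third and of 0.19 after the fifth. After the first injury this rested on samples 15 and 16, as in mt-Cytb, of complex III, which was at 9726, 9739 and 6314 CPM in samples 15, 16 and 36 and at 5963 to 6324 CPM in sham-injured mice.

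The mice of the 3 contrasts are all different, but the contrasts share a split by sample number. Both samples at 4 h after the third injury and 2 of 3 after the fifth are numbered 18 or lower. All samples before those injuries are numbered 19 or higher. The first injury's contrast is split in part: samples 15, 16 and 36 stand against sham samples 6, 20, 35 and 39. In 21 features (0.138%) every sample at 4 h lay above every sample it was set against after the first, the third and the fifth injury, and in 6 (0.0394%) below. The 21 were 1.91% of the 1100 that did so after the fifth injury, and 4.50% and 1.30% of the 467 and 1618 that did so after the first and the third. Besides Osmr, Plin4 and Fkbp5 they held Ccl6, Ezr, a linker of membrane and actin found in astrocyte processes, Ano6, a lipid scramblase, and Sdc4, a heparan sulfate proteoglycan. Osmr was at 10.3, 6.23 and 8.82 CPM after the first injury against 3.77 to 4.08 CPM in sham-injured mice, and at 10.1 and 4.36 CPM after the third against 2.57 to 3.24 CPM. Ezr was at 97.5, 174 and 98.2 CPM after the fifth injury against 81.6, 74.4 and 73.6 CPM. Sdc4 was at 58.2, 111 and 56.5 CPM against 44.8, 54.5 and 51.6 CPM. The log2 differences of Sdc4 were 0.59 after the fifth, 0.57 after the first and 0.63 after the third injury, and that after the fifth was 0.18 without sample 10. For Ezr the difference after the fifth injury was 0.69, and 0.35 without sample 10. None of these differences had an adjusted p under 0.05 by edgeR in any of the 3 comparisons.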

How the data were processed

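Total RNA of 40 samples was sequenced in bulk, and the count matrix was made by a sequencing company. The values as deposited by the authors were expected counts per gene (4.46% of them not whole), on mm10 per the labels, and were rounded here. The column names end as the gene-level output of Salmon does, and its version and strand setting are not given in the sources used here, so genes that share reads may be split either way. All 55536 mouse identifiers matched GENCODE, and 3 features were human, not all of which are reported here. Sample 30 was left out, as in the study, which left 39.

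A feature was dropped where more than 4 samples held under 10 counts of it, which left 15224. Counts were TMM-normalized and tested with edgeR 4.0.16 (R 4.3.3; quasi-likelihood, 12 group means, Benjamini-Hochberg adjusted p under 0.05). DESeq2 1.42.0 and sva 3.50.0 served as alternatives, with other filters, scalings, covariates and left-out samples. Summed counts per sample ran from 15926014 to 27859547, which sets the counting error.

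Named genes were the 12 higher and 12 lower with the smallest p among those whose groups did not overlap and whose mean was at least 1 CPM, up to 4 per gene list by p, all members of the clock, glucocorticoid-responsive and immediate early lists where given, up to 10 per difference of differences, and the human features. Members and lists were chosen with earlier results of these data known. Genes outside the rule, chosen after their values were seen, were Hmox1, Klk6, Spp1, Adora2a, Nnt, Gm3055, Ptgs2, Gfap, Vim, Hsp90ab1, Hsph1, Bag3, Ano6, Ezr and Sdc4. The striatal list and the TGACG and GAANNTTC searches were also added then.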

Additional observations from a re-analysis of the deposited data

Results flagged for a closer look

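For 16 genes, not all of them named above, the single highest and lowest mouse was compared with its group. This was done in the sham-injured and 5xCHI 24 h mice (n = 4 each), by Dixon's 95% critical value on the gap to the nearest mouse. Of 32 such checks 6 stood out, where chance gives about 1 in 20 in independent checks. These were not independent, since the genes were chosen with values known and 4 of the 6 belong to the same mouse. In the 5xCHI 24 h group, sample 11 was far above the other 3 mice for Gfap at 2417 CPM, for Hmox1 at 176 CPM and for the metallothionein Mt2 at 352 CPM, and far below them for Arc at 41.2 CPM. In the same group, sample 12 was high for Ttr at 383 CPM. Among the sham-injured mice, sample 6 was low for Kcns1 at 22.3 CPM. Groups of 3, which include both groups of the main comparison, were not checked in this way.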

How the results depend on the processing

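No paired analysis was possible because no sample number occurs in more than 1 group. Called features stayed at 0 in all 5 comparisons under every alternative run except the use of samples 19 to 40 only, where 5xCHI 4 h is sample 32 alone, assumed to vary like the other groups. There the count was 1 against 4xCHI 24 h, 2 against 5xCHI 30 min, 1 against 5xCHI 24 h and 1 for the difference from the first injury, and the difference from the third could not be fitted. The calls were an entry of Nnt (ENSMUSG00000116207), a mitochondrial transhydrogenase, with log2 differences from -4.05 to -3.61 (adjusted p from 1.62e-06 to 0.000186 by edgeR), and Gm3055 at 3.32 (adjusted p = 0.0246). This Nnt entry was at 0.937 CPM in sample 32 and 10.9 to 14.5 CPM in the other 5, while the entry overlapping it (ENSMUSG00000025453) was at 20.6 and 6.92 to 9.07 CPM. Features at an unadjusted p under 0.05 numbered from 249 (without samples 10 and 25) to 1263 (no filter on low counts) beside 812, with 384 without sample 10. These ran from 283 to 1060 against 30 min, 196 to 1051 against 24 h, 219 to 1620 for the difference from the first injury and 97 to 552 for that from the third.

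Of 1331 gene values in 74 genes, 1321 kept their direction and 10 reversed. With samples 19 to 40 only these were Gfap at -0.71, S1pr3 at -0.02, Serpina3n at -0.18, Spp1 at -0.17, C3ar1 and C1qc at -0.03, Fcrls at -0.18 and Laptm5 at 0. Spp1 was -0.64 without samples 10 and 25, and -0.24 to 2.47 on leaving out single samples. List medians with samples 19 to 40 only were -0.09 for pan-reactive, -0.19 for A1, -0.13 for A2 and -0.07 for homeostatic astrocyte genes, 0 for homeostatic and -0.05 for disease-associated microglia, -0.04 for complement, 0.36 for the mitochondrial genome and 0.01 for oligodendrocyte precursors. Without samples 10 and 25, a choice made after seeing the data, they were 0.25, -0.21, 0.06 and -0.06 for the astrocyte lists in that order, 0.03 for both microglial lists, 0.02 for complement and -0.31 for interferon response. Without samples 24 and 32, also chosen so, the mitochondrial genome was at 0.04. No filter gave 1.06 for A2 and 0.92 for complement genes. With a covariate that splits the samples after number 18, A1 was at -0.18, the nuclear respiratory chain at -0.18 and the clock at -0.05. With 1 surrogate variable the last pair were at -0.16 and -0.05, and with sample number as a covariate the respiratory chain was at -0.14. Leaving out single samples gave -1.20 to -0.41 for immediate early, 0.37 to 2.24 for pan-reactive and 0.04 to 0.70 for disease-associated microglia genes. The cause of these shifts was not tested.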
